A study of Homo sapiens with 13 samples.

Results

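YAP is a transcriptional coactivator at the end of the Hippo pathway. It has no DNA-binding domain of its own and reaches chromatin through partner proteins, chiefly the TEAD family, and in breast cancer cells it is known to act largely at enhancers that lie far from gene starts. Its paralogue TAZ uses the same TEAD partners, and JUN, a subunit of AP-1, binds its own DNA element and is often found at the same enhancers. The data described here are the sites at which YAP was found by chromatin immunoprecipitation and sequencing (ChIP-seq) in MDA-MB-231, an established human cell line from a triple-negative, basal-like breast cancer, grown in DMEM:F12 with 10% fetal bovine serum. No treatment or genetic change is given in the labels.

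The YAP sites are all 7709 entries of 1 deposited peak list, out of 50467 entries in the 4 lists of the series. The list was made from 2 YAP libraries, precipitated with an Abcam antibody to YAP, and 2 control libraries precipitated with rabbit IgG, which were pooled as the control. The remaining libraries of the series are 2 for TAZ, 2 for TEAD4, 2 for JUN and 3 with mouse IgG. The lists of TAZ (9798 peaks), TEAD4 (8406) and JUN (24554) serve below only to say what else was listed at or near a YAP site. TAZ was read against the same rabbit IgG, while TEAD4 and JUN had mouse IgG controls.

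Each entry is a peak, a stretch of hg19 with a start, an end, a summit (the base of highest signal), a fold enrichment over IgG and a −log10 p, all of them the authors' own values. The list gives 1 value per peak and none per replicate, so no spread between the 2 YAP libraries can be shown, and the number of reads behind a peak is unknown. Peaks of 1 list are not replicates of a condition. All comparisons between kinds of YAP peak are therefore descriptions without a test, and the 95% intervals given for shares are exact binomial (Clopper-Pearson) and cover counting error only. Positions are counted from 1. Genes beside the sites, DNA motifs and sequences were not analysed here, because no annotation or sequence of hg19 was used.

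YAP peaks were found on all 22 autosomes and on the X chromosome. Across the span covered by the 4 lists (2923 Mb) there were 2.64 YAP peaks per Mb, and together the peaks covered 4.64 Mb. Chromosome 17 was the densest with 303 peaks, or 3.74 per Mb. It was followed by chromosome 20 (3.49 per Mb), chromosome 19 (3.32), chromosome 10 (3.27) and chromosome 11 (3.26). The X chromosome was by far the sparsest, with 114 peaks or 0.752 per Mb, and the next lowest was chromosome 16 with 1.99. The spans were not corrected for stretches without sequence. That of chromosome 16 includes 17.9 Mb across its centromere without a YAP summit, so its place in this order depends partly on the span. As shares of each list, the sparse and the dense extremes were much alike for the 4 factors. Chromosome X held 1.48% of YAP, 1.48% of TAZ, 1.45% of TEAD4 and 1.66% of JUN peaks. Chromosome 17 held 3.93%, 3.93%, 4.16% and 4.27%, in the same order of lists. Chromosome 6 held 6.71% of YAP and 6.32% of JUN peaks, and 7.21% of TAZ and 7.93% of TEAD4 peaks.

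The names of the peaks carry a running number that goes up with position along every chromosome and reaches 35378. If these numbers count every candidate that the peak caller wrote, the listed 7709 are 21.8% of them. On each chromosome the candidates were counted from the number of the first listed YAP peak to that of the last. On that reading the candidates and the listed peaks differed most in density on chromosome 19. It had the most numbered candidates per Mb (21.9) and the smallest share listed (15.1%). Chromosome 18, with 10.3 candidates per Mb, had the largest share (24.8%). The remaining chromosomes lay between 18.8% (chromosome 16) and 23.9% (chromosome 11). The low YAP density of the X chromosome was present among the candidates too, at 3.76 per Mb, with 20.04% of them listed.

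**Figure D1:**
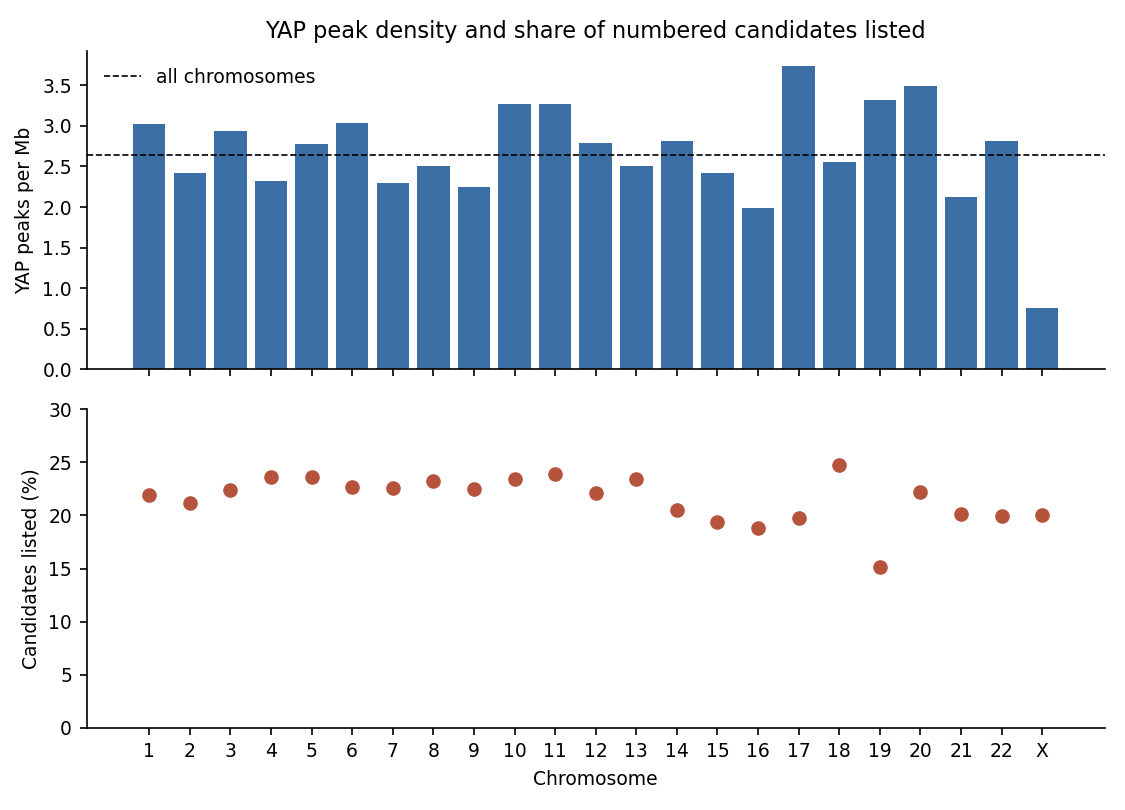
The upper panel gives YAP peaks per Mb of the span covered by the 4 lists for each chromosome, with a dashed line at the value for all chromosomes (2.64). The lower panel gives the percentage of numbered candidates, from the first to the last listed YAP peak of the chromosome, that are listed. Chromosome 17 has the tallest bar (3.74) and X the shortest (0.752), and chromosome 19 has the lowest share listed (15.1%).

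Peaks were unevenly spread at the scale of a megabase. Of the 2944 bins of 1 Mb within the covered span, 784 (26.6%, 25.04 to 28.3) held no YAP peak, 570 held 1 and 412 held 2. The mean was 2.62 peaks per bin and the variance 8.11, or 3.10 times the mean. Bins across centromeres and other stretches without sequence were not taken out. The empty bins and this ratio are partly set by them. The same ratio was 3.74 for TAZ, 3.52 for TEAD4 and 6.74 for the longer JUN list. At the other end, 86 bins (2.92%) held at least 10 peaks each and together 13.3% of the list (12.5 to 14.1). The densest 10% of all bins held 34.4% of YAP peaks.

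The bin with the most YAP peaks lay on chromosome 11 (chr11:69000001-70000000). It held 22, with a median fold enrichment of 7.33 and a maximum of 27.0, and 14 of them had another YAP summit within 10 kb. Chromosome 11 held another pair of the top bins, with 20 peaks at 12000001 to 13000000 (median 6.27-fold) and 19 at 130000001 to 131000000 (median 6.18-fold). Chromosome 10 had 19 at 95000001 to 96000000. These were 67.9% of the candidates numbered from the first to the last listed peak of the bin, the highest such share of the 10 bins described. Candidates nearer the bin's edges are not counted, so the share of all candidates in the bin may be lower. The bins with 17 peaks each lay on chromosome 15 (chr15:67000001-68000000), chromosome 2 (chr2:47000001-48000000) and chromosome 6 (chr6:11000001-12000000). The last of the 10 were on chromosome 20 (chr20:49000001-50000000, 16 peaks), chromosome 22 (chr22:27000001-28000000, 15) and chromosome 1 (chr1:218000001-219000000, 15). Another bin with 15 peaks tied with these last ones and is not described. None of the peaks in the 10 bins described lacked all partners (TAZ, TEAD4 and JUN). Such peaks made up only 1.98% of the whole list, so their absence from bins of 15 to 22 peaks each says little about dense bins. The 10 bins described were not the most enriched ones. Their median fold ranged from 5.92 on chromosome 20 to 9.25 on chromosome 22, around the 7.35 of the whole list.

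The longest stretch between neighbouring YAP summits was 33.1 Mb on chromosome 9, between 38682874 and 71737567. It held 3 JUN and 2 TAZ summits and spans the centromere. The next was 25.1 Mb on chromosome 1, from 119822230 to 144941393, with 8 JUN summits and 1 of TAZ. The third, 17.9 Mb on chromosome 16 between 30065044 and 47922216, held 23 JUN summits. These, too, span the centromeres of their chromosomes. Both of the following stretches, of 13.8 and 13.7 Mb, were on the X chromosome.

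Neighbouring YAP summits on a chromosome were a median of 131.8 kb apart, with the middle of the distribution between 31.0 and 415.5 kb (quartiles, 7686 neighbouring pairs). The distance from a peak to its nearest neighbour on either side had a median of 47.6 kb. Summits came as near as 0.42 kb, and the smallest gap between the ends of separate peaks was 0.041 kb. Of the neighbouring pairs, 78 (1.01%) were under 1 kb apart, 199 were 1 to 2 kb, 341 were 2 to 5 kb and 403 were 5 to 10 kb. A further 31.5% lay 10 to 100 kb apart, 46.0% 100 to 1000 kb and 9.24% beyond that.

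**Figure D2:**
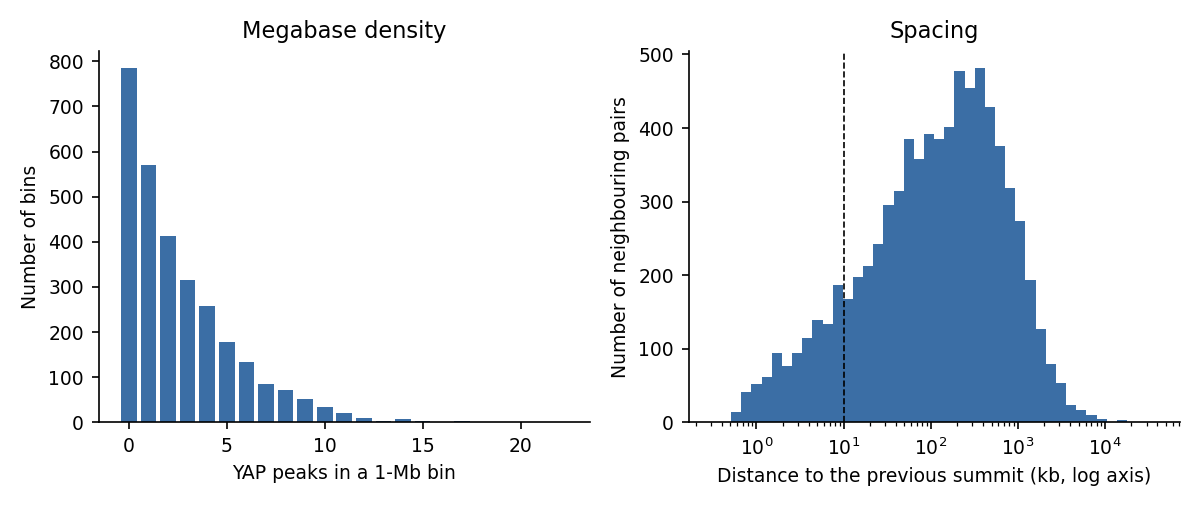
The left panel counts 1-Mb bins by the number of YAP peaks they hold, from 784 bins with none to 1 bin with 22. The right panel is a histogram of distances between neighbouring YAP summits on a log axis, with a dashed line at 10 kb. Distances reach from 0.42 kb to 33.1 Mb around a median of 131.8 kb.

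Runs of summits, each at most 10 kb from the next, are called chains here. There were 842 chains of at least 2 YAP peaks, and they held 1863 peaks, or 24.2% of the list (23.2 to 25.1). Most were pairs: 693 chains had 2 members, 125 had 3, 19 had 4, 4 had 5 and 1 had 6. A chain spanned a median of 4.71 kb from first to last summit and at most 24.0 kb. Within a chain the strongest member had a median of 1.40 times the fold enrichment of the weakest, and in 150 chains over 2 times. This is near the ratio of larger to smaller fold in neighbouring pairs at any distance. Its median was 1.32 under 2 kb and 1.34 beyond 1000 kb. The ratio in a chain can only grow with more members. The numbers in the peak names left room for 353 unlisted candidates inside 248 of the 842 chains (29.5%), so the listed chains may be parts of longer rows of candidates.

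Members of chains were wider and more often carried JUN than single peaks, while their median enrichment was about the same. Single peaks had a median fold of 7.35, members of pairs 7.39, of chains of 3 7.17, and of longer chains 7.56. Median widths were 543 bp for single peaks, 593 bp in pairs, 580 bp in chains of 3 and 718.5 bp in the 102 members of longer chains. JUN was present at 75.3% of single peaks (74.2 to 76.4) and at 82.2% of chain members (80.4 to 83.9). By length of chain the JUN share was 81.1% in pairs, 84.8% in chains of 3 and 87.3% (79.2 to 93.0) in longer ones. TEAD4 was at 73.7% of single peaks and 77.6% of chain members, and TAZ at 91.9% and 93.9%. Width goes with the chance of any overlap, and the part of width in these shares was not tested. Neighbours were scarcely alike in fold enrichment itself. Spearman's rho between a peak and the previous one was 0.10 for the 277 pairs under 2 kb apart, 0.07 for the 744 pairs at 2 to 10 kb and 0.05 for the 3534 pairs at 100 to 1000 kb, each across pairs of the same libraries and without a test. They were more alike in fold relative to peaks of similar p, a measure explained below, with rho of 0.46, 0.51 and 0.40 over the same 3 sets of pairs. For the 710 pairs over 1000 kb apart rho was -0.02 for fold and still 0.40 for this measure. The likeness in it was thus not confined to close neighbours.

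The chain with the most members, 6 YAP peaks, lay on chromosome 1 between 172866753 and 172887642. Its outer members were strong, 18.7-fold at the first summit and 17.9-fold at the last, and the 4 between them were 5.89-, 9.88-, 6.54- and 5.56-fold in order of position. TAZ was listed at all 6, and TEAD4 and JUN at 5 each. A chain of 5 on chromosome 10 (chr10:95218474-95236000) lay in the densest bin of that chromosome and ran from 14.3-fold down to 5.82-fold. Another on chromosome 10 (chr10:75646928-75667181) had its strongest members at its ends, 13.7- and 10.6-fold. All members of both chromosome 10 chains held TAZ, TEAD4 and JUN. The last chains of 5 lay on chromosome 1 (chr1:218653012-218672927, 6.57- to 11.9-fold) and chromosome 14 (chr14:93496266-93512817, 4.91- to 12.3-fold). In the chromosome 1 chain TEAD4 was listed at 3 of the 5 peaks, and in the chromosome 14 chain TAZ was missing from the weakest member.

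The YAP peaks were narrow. Their width had a median of 554 bp, with quartiles of 447 and 702 bp and extremes of 248 and 2597 bp. The summit sat near the middle: it had a median position of 49.6% of the width from the start (quartiles 42.2 and 57.2%), and a median distance of 40.5 bp from the centre. It was within 50 bp of the centre at 58.5% of peaks (57.4 to 59.6) and within 100 bp at 81.2%. Summits lay before the centre in 51.0% of peaks (49.9 to 52.1). Summits exactly at the centre were counted as not before it, so this share does not settle whether a side was slightly favoured. No summit was nearer than 76 bp to an edge. Only 69 peaks (0.895%) had the summit in the outer 20% of the width on either side.

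Width went with strength, across peaks of this list: Spearman's rho was 0.33 with fold enrichment and 0.44 with −log10 p (7709 peaks, no test). When the list was divided into 10 equal parts by fold, the median width was 711.5 bp in the strongest part and 505 bp in the weakest. The lowest medians, 485 and 487 bp, were in the parts next to the weakest. The 422 peaks of at least 1 kb (5.47%) had a median fold of 9.23, against 6.37 in the 1071 peaks under 400 bp. JUN was listed at 93.6% of the widest class and 57.4% of the narrowest. Wide peaks were also less centred, with a median distance from summit to centre of 207.8 bp and the summit in an outer 20% at 10.9% (8.09 to 14.3), against 0.316% of narrower peaks. At 37 of the 422 (8.77%, 6.25 to 11.9) at least 1 of the other factors had 2 or more separate peaks under the YAP peak. That was so at 13 of the 7287 narrower peaks (0.178%). A wider YAP peak has more room for 1 overlap or several. Both this contrast and that for JUN are therefore partly set by width.

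**Figure D3:**
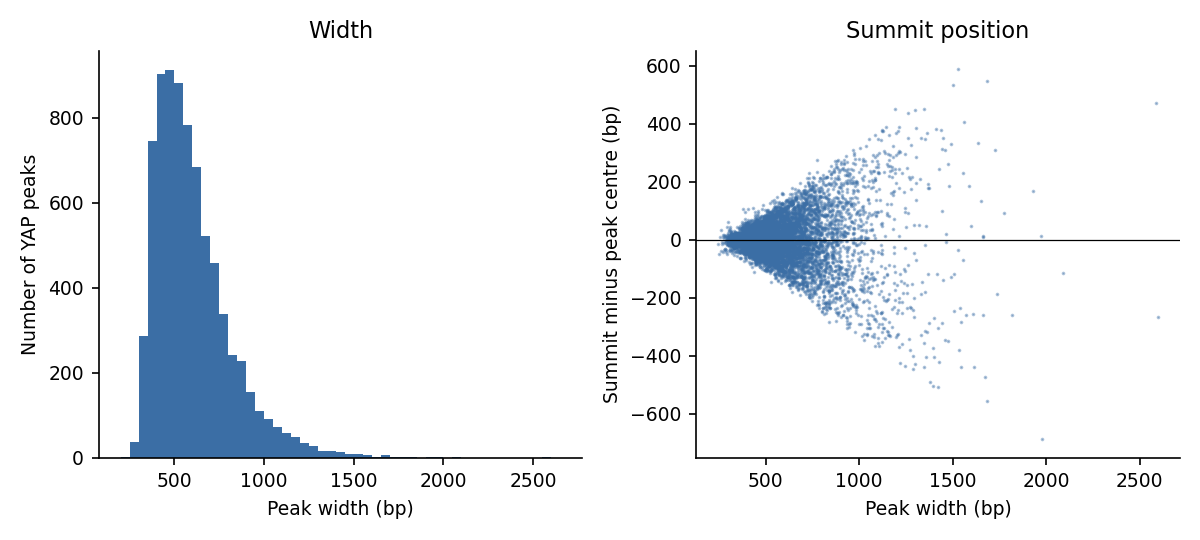
The left panel is a histogram of YAP peak widths in bp, and the right panel plots the offset of the summit from the peak centre against width, 1 point per peak. Widths centre on 554 bp, and summits lie on both sides of the centre, farther from it the wider the peak.

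The 5 widest peaks were of different kinds. The widest (2597 bp) lay on chromosome 3, from 134044892 to 134047488, and was also among the strongest, at 26.1-fold and rank 27. The next, 2590 bp on chromosome 1 (chr1:16471268-16473857), was 8.38-fold and had its summit at 68.2% of its width. A peak of 2088 bp on chromosome 16 (chr16:3071557-3073644) was 9.24-fold, with a JUN peak of 20.3-fold over it. A peak of 1980 bp on chromosome 14 (chr14:93502064-93504043) belonged to the chain of 5 described above and had its summit at 15.2% of its width. The last, on chromosome 10 (chr10:47057561-47059531, 1971 bp), had a low fold of 5.53 with a −log10 p of 72.4. All 5 held TAZ, TEAD4 and JUN, as did 56.0% of the whole list.

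Fold enrichment had a median of 7.35 and quartiles of 6.07 and 9.59. Few peaks stood high above that: 131 exceeded 20-fold. The 20 strongest ranged from 27.5- to 38.2-fold and lay on 14 chromosomes. TAZ and TEAD4 were listed at all 20 and JUN at 17. In the whole list TAZ was at 91.9% of single peaks and 93.9% of chain members. TEAD4 was at 73.7% and 77.6% and JUN at 75.3% and 82.2%, so the counts for TAZ and JUN say little about strong peaks. Their median width was 691.5 bp, with extremes of 510 and 1166 bp, and their median summit position was 50.1% of the width. Of the 20, 5 were in chains, near the share of 24.2% in the whole list. The nearest other YAP summit was a median of 41.9 kb away, near the 47.6 kb of the whole list.

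The strongest of all lay on chromosome 1 (chr1:19378928-19379518). It was 38.2-fold for YAP, and the overlapping peaks were 34.9-fold for TAZ, 29.0-fold for TEAD4 and 12.6-fold for JUN. The second, on chromosome 4 (chr4:165125440-165126110), was 33.8-fold, and the third, on chromosome 21 (chr21:17935977-17936486), 31.9-fold. The fourth was on chromosome 3 (chr3:126471839-126472762, 31.2-fold). Peaks on chromosome 9 (chr9:99182643-99183166) and chromosome 22 (chr22:41686522-41687302) had the same values, 30.2-fold and a −log10 p of 272.9.

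Peaks of about the same height on chromosome 5 (chr5:37272423-37273144, 30.2-fold), chromosome 7 (chr7:5630933-5631545, 28.8-fold) and chromosome 15 (chr15:67066600-67067132, 28.7-fold) were the 3 of the 20 without JUN. TEAD4 was 18.6-, 31.2- and 11.1-fold there. The strongest peak by p was on chromosome 19 (chr19:2540487-2541359), with a −log10 p of 379.6 and 29.0-fold. It had another YAP summit 8.15 kb away.

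The rest of the 20 had YAP folds from 27.5 to 30.1. They lay on chromosome 1 (chr1:52363276-52364441), chromosome X (chrX:46186865-46187612), chromosome 10 (chr10:15242288-15243273), chromosome 3 (chr3:76546507-76547501) and chromosome 12 (chr12:43355067-43355673 and 26243883-26244587). Others were on chromosome 7 (chr7:151451081-151451706 and 83153426-83154286), chromosome 18 (chr18:26745068-26745745) and chromosome 4 (chr4:91649015-91649649). The chromosome 18 peak had the nearest YAP neighbour of the 20, at 1.22 kb. The last-named peak on chromosome 4 was the most isolated, at 1066 kb from any other YAP summit. At these 20 sites JUN enrichment, where listed, ran from 7.11-fold (chromosome 3, 76546507) to 29.3-fold (chromosome 7, 151451081).

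Fold and p ranked the top of the list differently. Only 8 of the 20 strongest by fold were among the 20 strongest by p, although rho between both measures was 0.88 over the list. The 20 held p ranks down to 91. The fourth by p, on chromosome 3 (chr3:197216735-197217754, −log10 p 351.8), was 93rd by fold (21.7).

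The values also repeated. Of the 7709 peaks, 4904 (63.6%, 62.5 to 64.7) had the same fold and the same p as at least 1 other YAP peak, and the most frequent combination, at 6.53-fold, occurred at 32 peaks. Tied peaks had a median fold of 6.88, and those with values of their own 8.96. The share of tied peaks was 89.5% on the X chromosome, 75.5% on chromosome 15 and 50% on chromosome 20. Ranks within such ties carry no information.

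To see where fold and p parted, the list was divided into 20 equal parts by p and each peak's fold was set against the median of its part. This ratio, called relative fold here, was then taken as a median over windows of 5 Mb with at least 8 YAP peaks (421 windows), a measure chosen after the fold and p values had been seen. Window medians ran from 0.681 to 1.24. They formed a large group and a smaller, higher one, with 101 windows between 0.95 and 1, 26 between 1.05 and 1.1, and 48 between 1.15 and 1.2. Divided at 1.1, 304 windows lay below (median 0.968) and 117 at or above (median 1.16). Some chromosomes lay wholly on one side. All windows of chromosomes 21 (5) and X (6) were at or above 1.1, as were 4 of 5 on chromosome 22. All those of chromosomes 5 (28), 11 (21), 14 (12), 17 (14) and 20 (13) were below it. Others were divided, such as chromosome 2, with 19 of 35 windows at or above 1.1, and chromosome 4, with 13 of 26. The cause of these groups was not tested.

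The lowest relative fold was on chromosome 6 between 35000001 and 45000000. The 68 YAP peaks there had a median fold of 5.37 with a median −log10 p of 45.01, while the other 449 peaks of the chromosome had a median fold of 7.36 at a −log10 p of 40.7. Relative fold was 0.708 inside and 1.02 outside. Of the 26 YAP peaks under 4-fold in the whole list, 7 lay in this interval, and 18 of its 68 peaks exceeded the list's median fold. The interval stood low in every list: relative fold inside was 0.721 for TAZ (79 peaks), 0.713 for TEAD4 (70) and 0.667 for JUN (200). TEAD4 and JUN had other controls than YAP, and all libraries come from the same cell line. The cause of the low values was not tested. Tied values were seen at 16.2% of YAP peaks in the interval (8.36 to 27.1). After this interval, the lowest windows were on chromosome 12 (chr12:120000001-125000000, 0.792), chromosome 19 (chr19:10000001-15000000, 0.797) and chromosome 19 (chr19:15000001-20000000, 0.806). The next was again on chromosome 6 (chr6:25000001-30000000), at 0.810 over 14 YAP peaks. There TAZ (0.644, 104 peaks) and TEAD4 (0.667, 107 peaks) were lower than in either window of the 35000001 to 45000000 interval, and JUN was at 0.830 (36 peaks).

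Over all windows, the YAP values went with those of the lists read against mouse IgG. Spearman's rho was 0.88 with JUN (421 windows) and 0.80 with TEAD4 (402 windows with at least 8 peaks of both). The windows are not independent points, since they share libraries and neighbouring windows resemble each other, and they form the pair of groups above. Within the 304 windows below 1.1 rho was 0.71 with JUN and 0.57 with TEAD4 (297 windows). Within those at or above it rho was 0.51 with JUN (117 windows) and 0.21 with TEAD4 (105 windows).

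**Figure D4:**
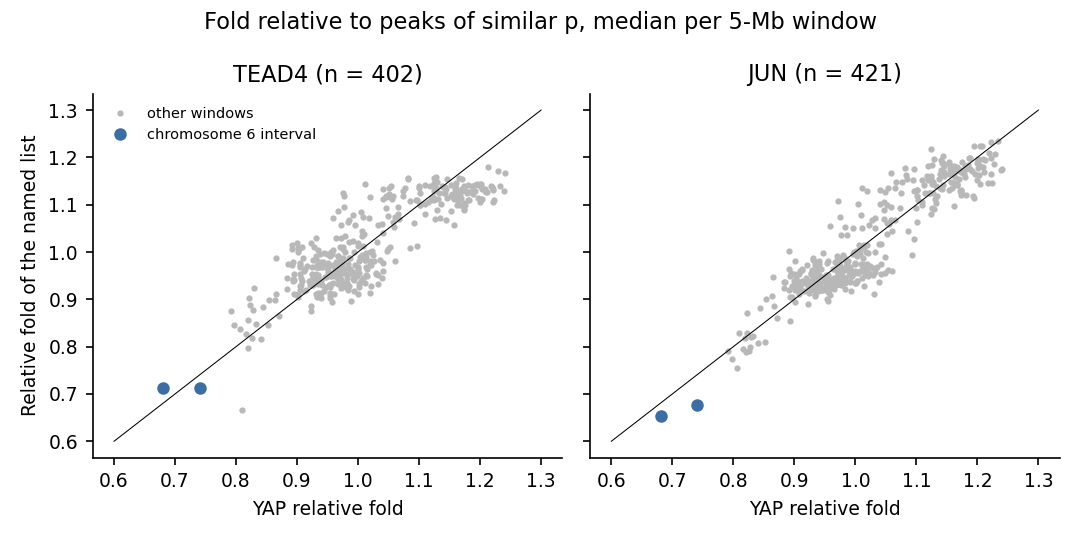
Each point is a 5-Mb window, and the axes give the median relative fold of its YAP peaks and of its TEAD4 or JUN peaks, as ratios without unit, with a line of equality. On the YAP axis the windows form a group with a median of 0.968 and another with a median of 1.16, and the chromosome 6 interval (blue) is at the lower left of both panels.

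A YAP peak counts here as having a partner when a peak of TAZ, TEAD4 or JUN overlaps it by at least 1 bp. By that rule 153 of the 7709 YAP peaks (1.98%, 1.69 to 2.32) had none. The corresponding shares were 4.96% for TAZ peaks without YAP, TEAD4 and JUN, 10.2% for TEAD4 peaks without the other 3, and 66.3% for JUN peaks, which are the most numerous. These depend on list length. Between the 153 and the 4316 YAP peaks with all 3 partners (56.0%) lay 6 intermediate kinds. TAZ with JUN but no TEAD4 was at 1283 (16.6%), TAZ with TEAD4 but no JUN at 1214 (15.7%) and TAZ alone at 309. Without TAZ, JUN alone was at 212 YAP peaks, TEAD4 with JUN at 123 and TEAD4 alone at 99.

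YAP peaks had the highest median fold where both TAZ and TEAD4 were listed. A listing depends on the cut-off of each list, and TAZ shares the rabbit IgG controls of YAP. The part of either in these differences was not tested. Median fold was 8.21 with all 3 partners and 7.92 with TAZ and TEAD4, but 6.39 with TAZ and JUN and 6.51 with TAZ alone. Without TAZ it was 5.85 with TEAD4 and JUN, 6.10 with TEAD4 and 5.79 with JUN, near the 5.72 of peaks without any partner. Width went with JUN: at the same TAZ and TEAD4 status the median was larger with JUN in all 4 pairings (606 against 511 bp, 523 against 427, 466 against 418, and 442 against 393). A wider YAP peak is also more likely to meet the overlap rule, so the classes are partly set by the width compared, here and for peaks without any partner. The distance to the nearest YAP summit was also shorter with JUN in all 4. It was 40.6 against 65.1 kb with TAZ and TEAD4, 47.4 against 85.0 kb with TAZ, 57.9 against 101.9 kb with TEAD4, and 44.0 against 79.7 kb with neither.

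The 153 peaks without partners were weak and narrow. Their median fold was 5.72 (quartiles 4.98 and 6.44, extremes 2.54 and 10.0), against 7.37 for the 7556 with a partner (quartiles 6.10 and 9.63). Their median −log10 p was 27.0, close to the 24.3 of the weakest peak listed, against 42.5. Of the 153, 141 (92.2%) were in the weaker 50% of the list by fold. In 10 equal parts by fold, 55 were in the weakest part (7.13% of it, 5.42 to 9.18). None were among the 1541 peaks of the strongest 2 parts, which allows a share of up to 0.195% if a count of 0 is taken to allow 3 peaks, and up to 0.239% by the exact interval.

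They were narrower at like fold enrichment, too. The median width was 393 bp without partners, with quartiles of 343 and 476 bp, and 558 bp with a partner. Within the weakest part by fold it was 388 against 515 bp. In the 3 parts next to it the medians were 395 against 490.5 bp, 411 against 492 bp and 387 against 506 bp. The order was the same in each of the 8 parts that held such peaks, though some of these parts held few (9, 8, 3 and 1). None was 1 kb wide or more, out of 422 YAP peaks of that width, which allows up to 0.711% by the limit of 3 peaks and 0.870% by the exact interval. Their summits lay closer to the centre, at a median of 19 bp against 41 bp, as in other narrow peaks.

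**Figure D5:**
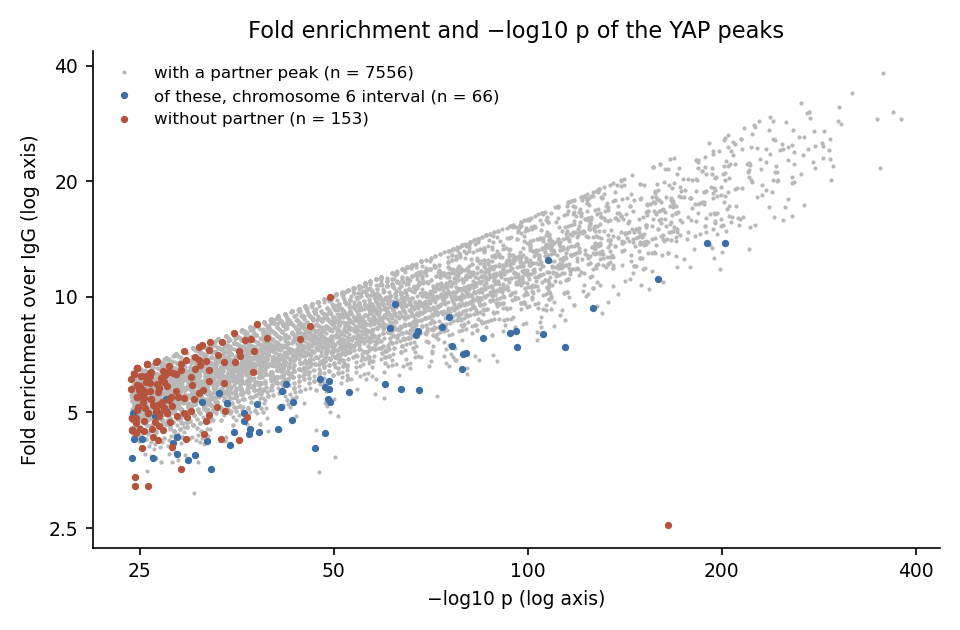
Each point is a YAP peak, with −log10 p and fold enrichment over IgG on log axes. Peaks without partner (red, 153) crowd the lower left, except 1 peak at 2.54-fold and a −log10 p of 164.9, and peaks with a partner in the chromosome 6 interval (blue) lie along the lower edge of the cloud of all others (grey).

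Peaks without partners were scattered. They were found on 22 of the 23 chromosomes, and chromosome 22 had none among its 93 YAP peaks, which allows up to 3.23% by the limit of 3 peaks and 3.89% by the exact interval. Chromosome 1, with the most YAP peaks, also had the most of these, 20 of 750 (2.67%), and chromosome 16 had 1 of 179 (0.559%). The largest share was 2.96%, on chromosome 12, against 1.98% of the whole list. Of the 1-Mb bins with YAP peaks, 135 held 1 such peak and 9 held 2, and no bin held more. The bins with 2 lay on chromosome 3 (chr3:12000001-13000000 and 193000001-194000000), chromosome 4 (chr4:26000001-27000000), chromosome 5 (chr5:114000001-115000000 and 139000001-140000000) and chromosome 8 (chr8:110000001-111000000). The others were on chromosome 11 (chr11:62000001-63000000), chromosome 18 (chr18:21000001-22000000) and chromosome 20 (chr20:62000001-63000000). Such peaks were also lonelier within the YAP list, with a median of 79.7 kb to the nearest YAP summit against 46.9 kb, and 22 of the 153 were in chains (14.4% against 24.4%).

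Their distance to the nearest listed peak of another factor varied widely. Distances from arbitrary positions are not given, so these values cannot be called short or long. The nearest such peak was a median of 19.4 kb away (quartiles 5.90 and 75.5 kb). It lay within 1 kb for 10 of the 153 (6.54%, 3.18 to 11.7) and within 10 kb for 51 (33.3%, 25.9 to 41.4), and over 100 kb away for 27 (17.6%, 11.96 to 24.6). The nearest was a JUN peak for 126, a TEAD4 peak for 15 and a TAZ peak for 12. Median gaps were 23.3 kb to JUN, 60.9 kb to TAZ and 80.1 kb to TEAD4, the JUN list being the longest.

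The strongest peak without a partner lay on chromosome 2 (chr2:185204724-185205131). It was 10.0-fold, rank 1690 in the list, and 256.4 kb from the nearest peak of any other factor. The second, on chromosome 12 (chr12:69809504-69809853), was 8.47-fold and 9.72 kb from a JUN peak. The third, on the X chromosome (chrX:83757236-83757729, 8.41-fold), was 333.6 kb from any. The fifth, on chromosome 20 (chr20:25718787-25719144, 7.81-fold), was an edge case, with TAZ, TEAD4 and JUN peaks within 1.16 kb and another YAP summit at 1.52 kb.

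The remaining 6 of the 10 strongest were 7.61- to 8.06-fold. They lay on chromosome 18 (chr18:72369614-72369963), chromosome 9 (chr9:129320403-129320710), chromosome 19 (chr19:44281218-44281655), chromosome 6 (chr6:74679701-74680115), chromosome 4 (chr4:40024239-40024486) and chromosome 1 (chr1:15269414-15269750). Their widths ran from 248 to 438 bp. The chromosome 4 peak is the narrowest of the whole YAP list.

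One peak without a partner stood apart from all others. It lay on chromosome 6 (chr6:41909007-41909384, 378 bp), inside the interval of low relative fold. Its fold enrichment of 2.54 was the lowest of the 7709 peaks, yet its −log10 p of 164.9 ranked 253rd. Its fold was 0.144 times the median of peaks of similar p, and its summit was off centre, at 78.2% of its width. A JUN peak ended 0.183 kb from it without overlap, and the nearest TAZ and TEAD4 peaks were 19.6 and 23.3 kb away. It was singled out after its values were seen. The next lowest folds in the list, on chromosome 20 (chr20:57225985-57226436, 3.09-fold) and chromosome 1 (chr1:205091213-205091585, 3.21-fold), had −log10 p of 30.3 and 25.7, both below the lower quartile of the list (31.0).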

How the data were processed

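YAP, TAZ, TEAD4, JUN and IgG ChIP-seq libraries of MDA-MB-231 were grouped by the factor or IgG named in their labels. The submitters' processing notes name the build hg19 and the tools MACS2 2.0.10, Bowtie 0.12.7, CASAVA and SAMtools. Per the labels, peaks were called within the IDR (irreproducible discovery rate) framework against pooled IgG, at an IDR of 0.01. The authors deposited 1 list per factor: positions and summit offsets, fold enrichment (a ratio over IgG), the −log10 of p, and a score. The score and the q-values were not used.

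The summit is the start column plus the offset column, written 1-based. Overlap needed 1 bp, chains 10 kb, bins were 1 Mb and relative-fold windows 5 Mb. Density used the span from the first to the last peak of all lists. Python 3.11.15, pandas 2.3.3 and SciPy 1.17.1 were used, and the functions were tested on simulated intervals. Depth per library is unknown here, so it gives no precision. No test was made.

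Sites named are the 20 strongest, 5 widest peaks, the 5 chains with most members, the 10 densest bins, the 10 strongest peaks without partners and the bins with most of these. The longest stretches without peaks, the relative-fold windows, their divide at 1.1 and the chromosome 6 interval were chosen after their values were seen. The members and rules were chosen with earlier results of these data known. Gene lists, nearest genes and motifs had been planned, but they need hg19 and the reference is on GRCh38.p14, so they were not analysed here. Alternatives were other overlap rules, chain limits, bin starts, ranking by p, narrower peaks and the stronger 50%.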

Additional observations from a re-analysis of the deposited data

How the results depend on the processing

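Some descriptions moved with the settings, and the cause was not tested except where the setting itself sets it. The share of YAP peaks without a partner was 3.58% with 50% of both peaks overlapping, 2.53% with summits within 200 bp and 0.311% in the stronger 50% of the list, and it stayed within its interval when peaks up to 1 kb apart counted (1.85%). The share in chains was 15.2% at 5 kb, 51.1% at 50 kb and 14.0% in the stronger 50%, whose median spacing was 329.3 kb, having fewer peaks. The share in dense bins was 14.4% with bins moved by 0.5 Mb and 23.1% in the stronger 50% at 5 peaks a bin. Ranking by p kept 8 of the 20 strongest. Chromosome 17 was also densest by covered bases (2.28 kb per Mb), and the median summit position was 49.6% in the narrower 50%. No paired analysis was possible because each list joins both replicates in 1 value per peak, and for the same reason no replicate could be left out. The alternative by motif was not run, and the limits set by depth are unknown.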
